A study of Mus musculus with 16 samples.

Results

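The genes described here are 10 epigenetic regulators that are recurrently mutated in human leukemia: Ezh2, Suz12, Eed, Kmt2a, Kmt2d, Crebbp, Ep300, Setd2, Dnmt3a and Tet2. They were chosen by name, and for each the probe set that names that gene alone and has the highest mean over all arrays was used. All 10 were measured, through 13 probe sets in all, among 19938 genes tested. The series profiled mouse B cell precursor acute lymphoblastic leukemia on 16 gene arrays, whose deposited values are log2 intensities after RMA normalisation. Each value below is such a log2 level, and a difference of levels is on the log2 scale. Levels of different genes come from different probes and are not compared with each other.

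Leukemic total bone marrow of mice carrying heterozygous losses of both genes, Bank1+/- + Pax5+/- (Bank1/Pax5 leukemia), was hybridised to 6 arrays. Leukemic total bone marrow of Pax5+/- mice (Pax5 leukemia) was hybridised to 6 arrays. Wild-type (WT) bone marrow pro-B and pre-B cells were hybridised to 4 arrays, although the series design names 3 WT mice, so that the WT arrays may not all be separate animals. The WT arrays carry a cell type label that names leukemic cells, against their other labels, and the WT grouping here follows genotype and tissue. All leukemic mice carry the Pax5+/- allele, ages are not given in the labels, and animals were kept in a conventional facility with exposure to common pathogens. The WT material is a precursor fraction and the leukemic material is whole marrow, so genotype, leukemia and cell mixture cannot be told apart in the comparisons with WT. In such bulk samples fewer cells of a type and less RNA per cell also cannot be told apart.

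Chromatin is marked by enzymes that write, read or erase methyl and acetyl groups on histones and DNA. Polycomb repressive complex 2 (PRC2) methylates lysine 27 of histone H3 at silenced genes through its catalytic subunit Ezh2, and needs the subunits Suz12 and Eed to do so. The KMT2 enzymes methylate lysine 4 of histone H3 at promoters and enhancers, Crebbp and Ep300 acetylate histones at active enhancers, and Setd2 trimethylates lysine 36 of histone H3 along transcribed genes. Dnmt3a adds methyl groups to DNA and Tet2 oxidises them. In human acute lymphoblastic leukemia KMT2A is a known partner of oncogenic fusions, and loss-of-function lesions of the other genes recur across lymphoid and myeloid leukemias.

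The promoters of the 3 PRC2 core genes are shown because Ezh2 and Suz12 were lowest on the same 2 Bank1/Pax5 arrays, described below. Each is the RefSeq sequence on GRCm38.p6, 5′ to 3′ on the gene's strand, from 250 bases before to 50 bases after the annotated start. Capitals mark the letters TTTNNCGC, in which each N is C or G, the core of the motif bound by E2F factors, searched on both strands. The Ezh2 promoter lies at chr6:47594981-47595280 on the minus strand, the Suz12 promoter at chr11:79992856-79993155 on the plus strand and the Eed promoter at chr7:89980927-89981226 on the minus strand.
Ezh2: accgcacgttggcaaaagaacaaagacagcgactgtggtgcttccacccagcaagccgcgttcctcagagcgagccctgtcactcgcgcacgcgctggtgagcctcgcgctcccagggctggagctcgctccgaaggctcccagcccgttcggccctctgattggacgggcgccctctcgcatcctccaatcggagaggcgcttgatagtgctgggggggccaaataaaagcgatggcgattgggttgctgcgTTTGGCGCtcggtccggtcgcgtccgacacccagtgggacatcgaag
Suz12: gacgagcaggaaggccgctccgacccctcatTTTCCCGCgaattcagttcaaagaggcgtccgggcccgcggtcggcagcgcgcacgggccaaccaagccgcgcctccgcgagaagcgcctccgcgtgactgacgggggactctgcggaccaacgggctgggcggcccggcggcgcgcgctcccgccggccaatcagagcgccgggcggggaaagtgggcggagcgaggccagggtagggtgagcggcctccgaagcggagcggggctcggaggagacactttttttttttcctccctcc
Eed: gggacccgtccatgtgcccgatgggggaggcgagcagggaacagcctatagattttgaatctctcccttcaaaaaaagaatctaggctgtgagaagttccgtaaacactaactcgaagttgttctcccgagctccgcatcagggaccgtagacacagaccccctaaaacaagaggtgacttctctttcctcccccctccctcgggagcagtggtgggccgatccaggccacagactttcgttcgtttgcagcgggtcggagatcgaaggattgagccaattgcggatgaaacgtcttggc
The E2F letters occurred once in the Ezh2 window, starting at base 4 relative to the annotated start, and once in the Suz12 window, starting at base -219. They were not in the windows of the other 8 regulators, and 2.26% of 32851 promoters of the same length hold them. Those promoters were not matched for CpG content, and whether E2F factors act on any of these genes was not tested. The CCAAT box, CCAAT on either strand, occurred 3 times in the Ezh2 window and once each in the Suz12 and Eed windows, and 37.4% of all promoters hold it. The TATA box letters, TATAAA on either strand, were in none of the 10 regulators' windows and in 13.6% of all promoters. The 12 windows of the 10 regulators (Dnmt3a has 3) held between 17 and 57 CpG dinucleotides, the fewest in Eed and the most in Tet2, against a median of 7 over all promoters.

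The deposited arrays differed between groups in more than genotype. The B cell precursor marker list had a median level of 7.58 to 11.76 on Bank1/Pax5 arrays, 7.60 to 12.28 on Pax5 arrays and 12.52 to 12.63 on WT arrays. It was under 9 on Bank1/Pax5 arrays 4 and 6 and on Pax5 arrays 3 and 5, so the labelled B cell precursor type was weakly marked there. The mean of the marker lists of other cell types was 8.02 to 9.60, 7.52 to 8.37 and 7.52 to 7.94, in the order Bank1/Pax5, Pax5 and WT. Single lists moved in opposite directions within it. Every Pax5 array lay above every WT array for monocyte (8.10 to 9.05 against 6.49 to 6.62), megakaryocyte (8.53 to 11.28 against 6.88 to 7.16) and stromal markers (7.79 to 10.17 against 6.69 to 6.92). Every Pax5 array lay below every WT array for erythroid, T cell and NK cell markers, the last at 5.515 to 5.89 against 8.07 to 8.89. Pax5 itself ranged over 7.85 to 11.85 on Bank1/Pax5 arrays, 7.52 to 12.21 on Pax5 arrays and 11.85 to 12.12 on WT arrays, and Bank1 over 7.26 to 9.52, 8.80 to 11.09 and 9.0 to 9.26. Bank1 differed between the leukemia groups (log2 difference -1.54, adjusted p = 0.0265 by limma) but not past the test from WT in either; the labels do not say which exons are deleted. The Y-linked gene Eif2s3y was low on all 4 WT arrays, on Bank1/Pax5 arrays 3 and 5 and on Pax5 array 2, and high on the other 9 arrays. Whether these differences in cell mixture and sex take part in the results below was not tested beyond the values given beside them.

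In Bank1/Pax5 leukemia against WT precursors, 7 of the 10 regulators fell and none rose: Ezh2, Kmt2a, Crebbp, Ep300, Suz12, Setd2 and Kmt2d. Of all genes tested, 12.8% fell and 6.8% rose, 19.6% in all. In Pax5 leukemia against WT precursors, Ezh2, Crebbp and Kmt2a fell and Dnmt3a rose, where 13.8% of all genes fell and 9.53% rose, 23.3% in all. In Bank1/Pax5 against Pax5 leukemia, Kmt2d, Ep300 and Suz12 were lower and none was higher, where 5.0% of all genes were lower and 1.71% higher, 6.7% in all. The median difference of the 10 regulators was -0.48, -0.20 and -0.33 in these 3 comparisons, against -0.03, -0.05 and 0.02 over all genes. The 10 regulators lay above 7.01, the median of the mean levels of named probe sets, on every array. Among the 9865 genes with a mean of at least 7.01, fitted alone, 2128 fell and 1230 rose in Bank1/Pax5 leukemia against WT. In Pax5 leukemia against WT 1594 fell and 1757 rose, and in Bank1/Pax5 against Pax5 leukemia 1050 were lower and 236 higher. In each comparison a larger share of these brighter genes than of all genes was called. The shares over all genes therefore understate how often genes as bright as the regulators were called. The median differences of the brighter genes were -0.07, 0.005 and -0.09. A gene counted as changed at an adjusted p under 0.05 in limma's moderated test, adjusted by Benjamini-Hochberg over all 19938 genes. For the counts of the 9865 brighter genes the adjustment was over those genes alone. With the level of the other cell types' markers as a covariate 2 of the 7 regulators, Crebbp and Ep300, were still called lower in Bank1/Pax5 leukemia against WT, and fitted on the leukemia arrays alone none of the 10 was called between the leukemia groups. The up to 3 called genes with the smallest p in each chromatin list and comparison, without the Polycomb and KMT2A targets, were also followed. Against WT, that covariate ended 6 of 27 such calls in Bank1/Pax5 leukemia and none of 26 in Pax5 leukemia. The 6 were Phf19, Phc1, Rnf2, Taf1, Mbd1 and Tet3. The covariate is a mean that overlapped between Pax5 and WT arrays, though several single lists in it did not. It therefore cannot show whether the Pax5 calls depend on cell mixture. Kdm6a, outside the 27, also lost its call in Bank1/Pax5 leukemia, as given below. The covariate ended 18 of 21 such calls between the leukemia groups, all but Tet3, Setdb1 and Phf8. Fitting the leukemia arrays alone ended 12 of these 21, and kept Kmt2b, Tet3, Phf19, Pcgf6, Kat2a, Sirt7, Setdb1, Carm1 and Phf8. Rises made up 34.8% of all calls for Bank1/Pax5 against WT, 40.8% for Pax5 against WT and 25.4% for Bank1/Pax5 against Pax5. The same shares were 50.3%, 50.3% and 43.4% after cyclic loess scaling, and 16.9%, 31.2% and 12.4% after centring each array on its median, which moved the median difference of all genes for Bank1/Pax5 against WT to -0.13. The comparisons share arrays: both leukemia groups were set against the same 4 WT arrays, and each leukemia group enters 2 comparisons.

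The groups of arrays did not overlap for 6 regulators in Bank1/Pax5 leukemia against WT, all lower, against 12.3% of all genes lower and 7.35% higher. In Pax5 leukemia against WT 2 were lower without overlap and 1 higher, against 13.2% and 11.6% of all genes. Between the leukemia groups every regulator overlapped, and 2.7% of all genes did not, 1.87% being lower in Bank1/Pax5 leukemia. The spread over WT arrays was small beside that over leukemia arrays. The SD of Kmt2a was 0.31 over Bank1/Pax5 arrays, 0.33 over Pax5 arrays and 0.02 over WT arrays, and that of Tet2 was 0.57, 0.34 and 0.06 in the same order. Eed was an exception, with SDs of 0.23, 0.32 and 0.23.

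**Figure D1:**
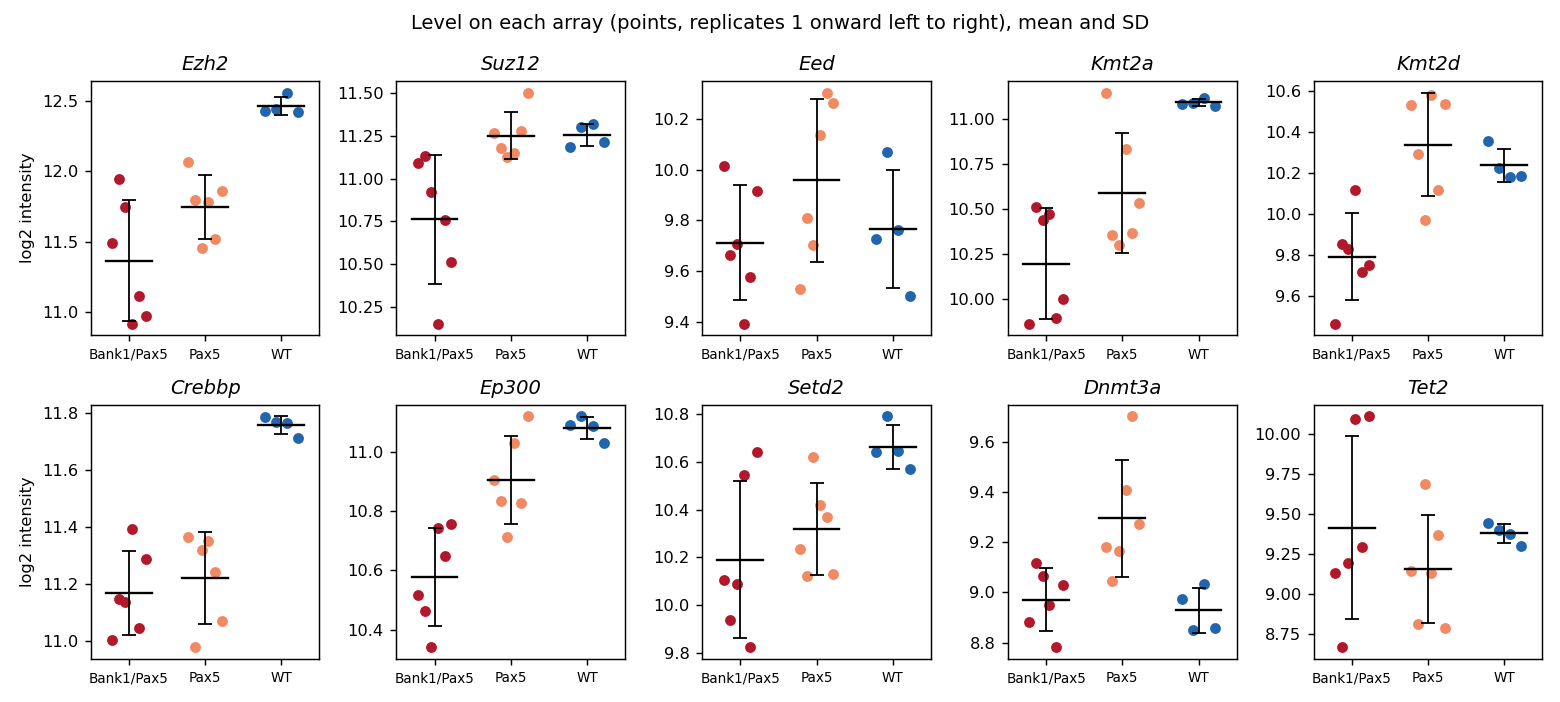
The log2 level of each of the 10 regulators (vertical axes) is plotted for every array in Bank1/Pax5 leukemia (n = 6), Pax5 leukemia (n = 6) and WT precursors (n = 4), with bars for the mean and SD. All Ezh2 and Crebbp points of both leukemia groups lie below all WT points, while Tet2 points of Bank1/Pax5 leukemia lie on both sides of WT.

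The catalytic PRC2 subunit Ezh2 fell in both leukemia groups. Its level was 10.92 at lowest, 11.30 in the median and 11.95 at highest in Bank1/Pax5 leukemia, and 11.46, 11.79 and 12.07 in Pax5 leukemia. On the WT arrays it was 12.43, 12.44, 12.56 and 12.42. Every leukemia array lay below every WT array. Ezh2 was 2.14-fold lower in Bank1/Pax5 leukemia than in WT (log2 difference -1.10, SE 0.19, adjusted p = 0.000792 by limma). It was 1.64-fold lower in Pax5 leukemia than in WT (-0.72, SE 0.19, adjusted p = 0.0124 by limma), a call lost when replicate numbers were fitted as blocks. Between Bank1/Pax5 and Pax5 leukemia Ezh2 differed by -0.38 (95% interval -0.74 to -0.03), which did not pass the test over all genes (adjusted p = 0.188 by limma). With the level of the other cell types' markers as a covariate the Bank1/Pax5 difference from WT was -0.57 and was not called (adjusted p = 0.103, range over 29 alternatives 2.44e-05 to 0.103 by limma).

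Suz12, the subunit that holds the PRC2 core together, was lower in Bank1/Pax5 leukemia than in both other groups. It stood at 10.15 at lowest, 10.84 in the median and 11.14 at highest in Bank1/Pax5 leukemia, and at 11.12, 11.23 and 11.50 in Pax5 leukemia. The WT arrays read 11.18, 11.30, 11.32 and 11.22. All 6 Bank1/Pax5 arrays lay below all WT arrays, and the Pax5 arrays lay around them. The difference was -0.49 against WT (SE 0.16, adjusted p = 0.0371 by limma) and -0.49 against Pax5 leukemia (SE 0.14, adjusted p = 0.0480 by limma). Pax5 leukemia differed from WT by 0.00 in size, with a 95% interval of -0.34 to 0.33. The call against WT was lost without Bank1/Pax5 array 5 or 6 or any single WT array, with adjusted p of 0.0603 to 0.0952 by limma. The call against Pax5 leukemia was lost in 13 of the 16 such omissions, all but those of Bank1/Pax5 arrays 1, 2 and 3, with adjusted p up to 0.0962.

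Eed, the PRC2 subunit that binds the methylated histone, passed the test in no comparison. Its level was 9.39 at lowest, 9.69 in the median and 10.02 at highest in Bank1/Pax5 leukemia, and 9.53, 9.97 and 10.30 in Pax5 leukemia. WT arrays read 9.72, 10.07, 9.76 and 9.50. The 3 groups overlapped throughout. The differences were -0.05 for Bank1/Pax5 against WT (95% interval -0.41 to 0.30, adjusted p = 0.854 by limma), 0.19 for Pax5 against WT (-0.16 to 0.55) and -0.25 for Bank1/Pax5 against Pax5 (-0.56 to 0.07). The first interval allows a fall of up to 0.41, and whether Eed differs from Ezh2 in its change was not tested. A second Eed probe set averaged 5.17 over all arrays, under the median of 7.01 for named probe sets, and was not used.

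Ezh1, the second catalytic PRC2 subunit, had another order of groups than Ezh2. It ranged over 9.10 to 9.82 in Bank1/Pax5 leukemia, 8.75 to 9.19 in Pax5 leukemia and 9.42 to 9.51 in WT. It was lower in Pax5 leukemia than in WT (-0.49, SE 0.12, adjusted p = 0.0104 by limma), and not called in Bank1/Pax5 leukemia against WT (-0.09, adjusted p = 0.652 by limma). It was higher in Bank1/Pax5 than in Pax5 leukemia (0.40, SE 0.11, adjusted p = 0.0426 by limma), a call lost in 11 of 16 omissions of 1 array (adjusted p up to 0.0902). Those arrays were Bank1/Pax5 arrays 4, 5 and 6, every WT array and Pax5 arrays 2, 4, 5 and 6.

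Of the 10 PRC2 subunits beside Ezh2, Suz12 and Eed, with Ezh1 among them, 1 rose and 2 fell in Bank1/Pax5 leukemia against WT. In Pax5 leukemia against WT 2 rose and 2 fell, Ezh1 being 1 of the falls. In Bank1/Pax5 leukemia against Pax5 leukemia 1 was higher, which was Ezh1, and 1 lower. Phf19, which recruits PRC2 to chromatin, was lower in both Bank1/Pax5 comparisons (-0.86 against WT, adjusted p = 0.00471, and -1.05 against Pax5, adjusted p = 0.00333, by limma). Both calls ended with the other cell types' markers as a covariate (-0.55 and -0.80, adjusted p = 0.239 and 0.0898 by limma). Jarid2, a recruiting subunit, fell in Bank1/Pax5 leukemia (-0.52, adjusted p = 0.0213 by limma), a call lost without WT array 1 or 4 (adjusted p 0.0562 to 0.0650). In Pax5 leukemia Epop and Aebp2, both accessory subunits, rose (0.73 and 0.51, adjusted p = 0.00190 and 0.00333 by limma). Epop also rose in Bank1/Pax5 leukemia (0.45, adjusted p = 0.0382 by limma), a call lost without any one of 7 arrays, Bank1/Pax5 arrays 1 to 4 and WT arrays 1 to 3 (adjusted p up to 0.120).

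Of 18 measured subunits of Polycomb repressive complex 1 (PRC1), 1 rose and 5 fell in Bank1/Pax5 leukemia against WT, and 3 rose and 2 fell in Pax5 leukemia against WT. Pcgf3 fell in both (-0.84 and -0.58, adjusted p = 0.000387 and 0.00526 by limma). Phc1 and the catalytic subunit Rnf2 fell in Bank1/Pax5 leukemia (-0.95 and -0.65, adjusted p = 0.00471 and 0.00598 by limma), and both calls ended with the other cell types' markers as a covariate (-0.50 and -0.18, adjusted p = 0.306 and 0.529). With that covariate 1 PRC1 gene fell and 3 rose in Bank1/Pax5 leukemia, and with cyclic loess scaling 3 fell and 2 rose. Pcgf6 and Pcgf2 rose in Pax5 leukemia (1.22 and 0.89, adjusted p = 7.42e-05 and 0.00630 by limma). Pcgf6 was the only PRC1 gene called between the leukemia groups, lower in Bank1/Pax5 (-0.92, adjusted p = 0.00221 by limma, and 0.0695 with the marker covariate). The WT mean of Pcgf2, 6.34, lay under the level of 7.01.

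Of 25 genes known as Polycomb or KMT2A targets, most of them Hox genes, 22 passed no test in Bank1/Pax5 leukemia against WT, 20 passed none in Pax5 leukemia against WT, and none was called between the leukemia groups (limma, adjusted p). Their probe sets were dim: on every array 20 to 24 of the 25 lay under 7.01, the median level of named probe sets, so that these data say little about a change in either direction. Hoxa7 and Hoxa3 were lower in both leukemia groups, by -0.20 and -0.24 in Bank1/Pax5 and by -0.34 and -0.25 in Pax5 leukemia. Hoxa4 was lower in Pax5 leukemia (-0.30) and Hoxb2 higher in Bank1/Pax5 leukemia (0.14). The group means of Hoxa3, Hoxb2 and Hoxa7 all lay under 7.01, and no fold is given for them. All but Hoxa7 in Pax5 leukemia were lost without some single array, with adjusted p by limma up to 0.175 for Hoxa7, 0.112 for Hoxa3 and 0.138 for Hoxb2 in Bank1/Pax5 leukemia, and up to 0.0870 for Hoxa3 and 0.0734 for Hoxa4 in Pax5 leukemia. Hoxa9 and Meis1, the transcription factors induced by KMT2A fusions, were called in no comparison. Hoxa9 ranged over 5.63 to 6.19, 5.68 to 5.93 and 5.97 to 6.14, and Meis1 over 5.96 to 7.22, 5.90 to 6.98 and 6.73 to 7.07, in Bank1/Pax5 leukemia, Pax5 leukemia and WT.

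Kmt2a, the histone H3 lysine 4 methyltransferase also called MLL, fell in both leukemia groups. Its level was 9.86 at lowest, 10.22 in the median and 10.51 at highest in Bank1/Pax5 leukemia, and 10.30, 10.45 and 11.14 in Pax5 leukemia. The WT arrays read 11.08, 11.09, 11.12 and 11.07. All Bank1/Pax5 arrays lay below WT, whereas Pax5 array 1 lay above all 4 WT arrays. Kmt2a was 1.86-fold lower in Bank1/Pax5 leukemia than in WT (-0.89, SE 0.17, adjusted p = 0.00225 by limma), a call that ended in 1 of the 29 alternatives run for single genes, with the other cell types' markers as a covariate (-0.50, adjusted p = 0.203, lowest over alternatives 5.70e-05). In Pax5 leukemia the difference was -0.50 (SE 0.17, adjusted p = 0.0499 by limma), at the edge of the threshold. That call was lost in 10 omissions of 1 array, those of Bank1/Pax5 array 3 or 6, any WT array or Pax5 array 2, 3, 5 or 6 (adjusted p 0.0531 to 0.105). Between the leukemia groups the difference was -0.39 (95% interval -0.72 to -0.06, adjusted p = 0.149 by limma).

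Kmt2d, the enhancer-directed lysine 4 methyltransferase, was lower in Bank1/Pax5 leukemia than in both other groups. It stood at 9.46 at lowest, 9.79 in the median and 10.12 at highest in Bank1/Pax5 leukemia, and at 9.97, 10.41 and 10.58 in Pax5 leukemia. WT arrays read 10.36, 10.22, 10.18 and 10.19. Every Bank1/Pax5 array lay below every WT array, and Pax5 arrays lay on both sides of WT. Kmt2d in Bank1/Pax5 leukemia was 1.47-fold lower than its level in Pax5 leukemia (-0.55, SE 0.12, adjusted p = 0.0140 by limma). It was lower in Bank1/Pax5 leukemia than in WT (-0.45, SE 0.13, adjusted p = 0.0255 by limma) and not called in Pax5 leukemia against WT (0.10, adjusted p = 0.598 by limma). Without any one WT array the call of Bank1/Pax5 against WT was lost (adjusted p 0.0520 to 0.0792), and fitted on the leukemia arrays alone the difference between them was not called (adjusted p = 0.0522, range over alternatives 0.00358 to 0.139 by limma). A dimmer second probe set gave -0.24, 0.62 and -0.86 for Bank1/Pax5 against WT, Pax5 against WT and Bank1/Pax5 against Pax5. The signs were the same, but the sizes differed, as for Pax5 against WT (0.62 against 0.10). With the probe sets of each gene averaged, the call of Bank1/Pax5 against WT ended (-0.34, adjusted p = 0.155 by limma). It also ended under cyclic loess scaling (-0.31, adjusted p = 0.1565 by limma).

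The paralogs Kmt2b and Kmt2c are further lysine 4 methyltransferases. Kmt2b was lower in Bank1/Pax5 leukemia than in WT (-0.72, adjusted p = 0.000457 by limma) and than in Pax5 leukemia (-0.52, adjusted p = 0.00880 by limma), and not called in Pax5 leukemia against WT (-0.20). Kmt2c, the other enhancer enzyme, fell in Bank1/Pax5 leukemia (-0.85, adjusted p = 0.00120 by limma) and in Pax5 leukemia (-0.70, adjusted p = 0.00415 by limma). Among 18 subunits and enzymes of the KMT2 family complexes, 11 fell and none rose in Bank1/Pax5 leukemia against WT, 5 fell and 2 rose in Pax5 leukemia against WT, and 3 were lower in Bank1/Pax5 leukemia against Pax5 leukemia. With the other cell types' markers as a covariate 5 fell and 1 rose in Bank1/Pax5 leukemia against WT, and none was called between the leukemia groups. Kmt2e and Cxxc1 fell in both (-0.88 and -0.62 in Bank1/Pax5, -0.75 and -0.43 in Pax5 leukemia). Rbbp5, a core subunit, fell in Bank1/Pax5 leukemia (-0.43, adjusted p = 0.000279 by limma). Rbbp5 and Setd1a were lower in Bank1/Pax5 leukemia against Pax5 leukemia (-0.22 and -0.49), calls lost in 7 and 6 omissions of 1 array, including Bank1/Pax5 arrays 1, 5 and 6 and Pax5 array 4 for both (adjusted p up to 0.0699 and 0.0667 by limma).

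Kdm6a, the X-linked lysine 27 demethylase that works beside Kmt2c and Kmt2d, ranged over 9.32 to 10.02 in Bank1/Pax5 leukemia, 9.39 to 10.22 in Pax5 leukemia and 10.40 to 10.63 in WT. It fell in both leukemia groups without overlap (-0.88 and -0.83, adjusted p = 0.000843 and 0.00115 by limma; -0.56 and 0.0955 in Bank1/Pax5 leukemia with the other cell types' markers as a covariate), and differed by -0.05 between them. The WT arrays all had low Eif2s3y, as had Bank1/Pax5 arrays 3 and 5 (Kdm6a 10.02 and 9.74) and Pax5 array 2 (9.57). These 3 leukemia arrays also lay below all WT arrays in Kdm6a. The X-linked gene Xist read 12.51 to 12.69 on WT arrays and 12.81 and 12.46 on Bank1/Pax5 arrays 3 and 5. On Pax5 array 2 Xist was lower, at 9.96. Whether sex takes part in the Kdm6a levels was not tested.

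**Figure D2:**
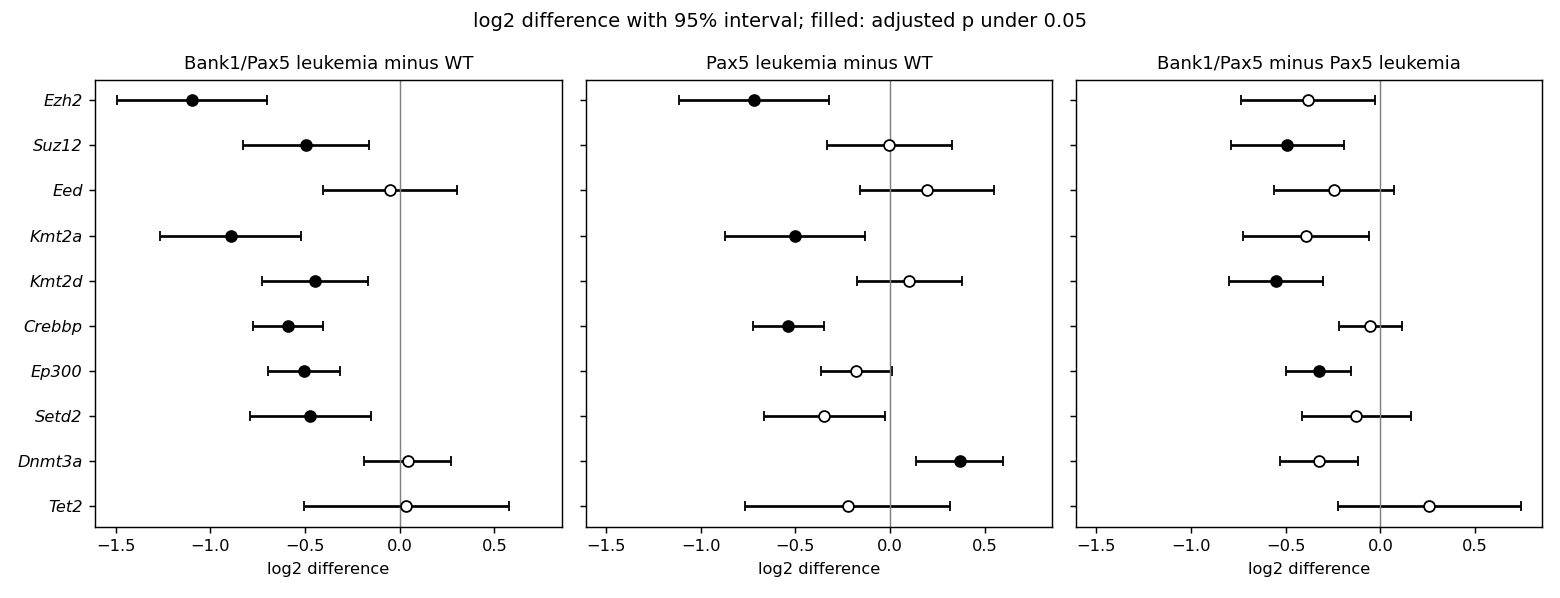
The log2 difference with its 95% interval is plotted for each regulator (rows) in the 3 comparisons (panels), with filled points where the adjusted p was under 0.05. Ezh2 has the largest fall of the 10 against WT in both leukemia groups, and Dnmt3a is the only filled point to the right of 0.

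Crebbp and Ep300 are the paired histone acetyltransferases CBP and p300. Crebbp was 11.00 at lowest, 11.14 in the median and 11.39 at highest in Bank1/Pax5 leukemia, and 10.98, 11.28 and 11.36 in Pax5 leukemia. On WT arrays it was 11.78, 11.77, 11.76 and 11.71. Every leukemia array of both groups lay below every WT array. Crebbp was 1.5-fold lower in Bank1/Pax5 leukemia than in WT (-0.59, SE 0.09, adjusted p = 0.000281 by limma) and 1.45-fold lower in Pax5 leukemia than in WT (-0.54, SE 0.09, adjusted p = 0.000530 by limma). The leukemia groups differed by -0.05 (95% interval -0.22 to 0.11). Both calls against WT held in all 29 alternatives run for single genes.

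Ep300 was 10.34 at lowest, 10.58 in the median and 10.76 at highest in Bank1/Pax5 leukemia, and 10.71, 10.87 and 11.12 in Pax5 leukemia. WT arrays read 11.09, 11.12, 11.09 and 11.03. All Bank1/Pax5 arrays lay below WT, and Bank1/Pax5 arrays 4 and 6 overlapped the lowest Pax5 array. Ep300 was lower in Bank1/Pax5 leukemia than in WT (-0.50, SE 0.09, adjusted p = 0.00110 by limma), in all 29 alternatives. It was 1.25-fold lower than in Pax5 leukemia (-0.33, SE 0.08, adjusted p = 0.0261 by limma), a call lost without Bank1/Pax5 array 1, Pax5 array 4 or Pax5 array 6 (adjusted p 0.0501 to 0.0584). Pax5 leukemia differed from WT by -0.18 (95% interval -0.37 to 0.01, adjusted p = 0.160 by limma).

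Among 14 other acetyltransferases and their partners, 7 fell in Bank1/Pax5 leukemia against WT with none higher, and 8 fell and 1 rose in Pax5 leukemia against WT. With the other cell types' markers as a covariate 4 fell and 1 rose in Bank1/Pax5 leukemia. Brpf1, Kat6a and Taf1 fell in Bank1/Pax5 leukemia (-0.54, -0.48 and -0.51), and Brpf1 and Kat2b fell in Pax5 leukemia (-0.45 and -0.61). The gene that rose was Kat2a, the catalytic subunit of the SAGA complex (1.06 in Pax5 leukemia, adjusted p = 5.21e-05 by limma). Kat2a was lower in Bank1/Pax5 leukemia against Pax5 leukemia (-0.72, adjusted p = 0.00349 by limma), as was Taf1 (-0.32, adjusted p = 0.0218 by limma, 0.0516 without Bank1/Pax5 array 5). Of 17 histone deacetylases, which remove the mark, 10 fell in Bank1/Pax5 leukemia and 8 fell and 2 rose in Pax5 leukemia, against WT. The count of 10 was 4 with the other cell types' markers as a covariate and 5 with cyclic loess scaling. Hdac8 was 3.56-fold and 3.85-fold lower (-1.83 and -1.94, adjusted p = 0.000362 and 0.000210 by limma), and Hdac11 fell by 0.84 and 0.94, in Bank1/Pax5 and Pax5 leukemia, where its means of 6.29 and 6.19 were under the level of 7.01. Hdac10 fell in Bank1/Pax5 leukemia (-0.93) and the deacetylase Sirt7 in Pax5 leukemia (-0.80). Between the leukemia groups Sirt7 was higher in Bank1/Pax5 (0.43, adjusted p = 0.00376 by limma), and Sirt6 and Hdac10 were lower (-0.62 and -0.41, adjusted p = 0.0277 and 0.0486 by limma). The Sirt6 call was lost without Bank1/Pax5 array 1 or 5 or Pax5 array 1, 2 or 5 (adjusted p up to 0.0667), and the Hdac10 call in 15 of the 16 omissions of 1 array (adjusted p up to 0.109).

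Setd2, which writes the lysine 36 trimethyl mark, was 9.82 at lowest, 10.10 in the median and 10.64 at highest in Bank1/Pax5 leukemia, and 10.12, 10.30 and 10.62 in Pax5 leukemia. WT arrays read 10.64, 10.79, 10.65 and 10.57. Bank1/Pax5 array 6 and Pax5 array 3 reached the WT range, and the others lay below it. Setd2 was lower in Bank1/Pax5 leukemia than in WT (-0.47, SE 0.15, adjusted p = 0.0386 by limma). That call was lost without Bank1/Pax5 array 1, 2, 3 or 5 or any one WT array (adjusted p 0.0626 to 0.103). The Pax5 difference was -0.35 (95% interval -0.67 to -0.03, adjusted p = 0.107 by limma) and that between leukemia groups -0.13. A second probe set of similar brightness gave -0.45, -0.33 and -0.12.

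Among 20 other histone methyltransferases, 2 rose and 7 fell in Bank1/Pax5 leukemia, and 6 rose and 4 fell in Pax5 leukemia, against WT. Smyd2, a lysine methyltransferase, was 3.81-fold and 5.75-fold higher (1.93 and 2.52, adjusted p = 8.73e-06 and 7.86e-07 by limma). Kmt5b, which methylates histone H4 lysine 20, fell in both (-0.71 and -0.85), Nsd1, which methylates lysine 36, fell in Bank1/Pax5 leukemia (-0.64), and the arginine methyltransferase Carm1 rose in Pax5 leukemia (0.91). In Bank1/Pax5 against Pax5 leukemia 7 were lower, led by Setdb1 (-0.55, adjusted p = 0.000355 by limma), Carm1 (-0.60, adjusted p = 0.00221) and Dot1l (-0.68, adjusted p = 0.0135). The count of 7 was 2 with only the leukemia groups fitted and 1, Setdb1, with the other cell types' markers as a covariate. With that covariate 3 fell and 3 rose in Bank1/Pax5 leukemia against WT.

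Dnmt3a, the de novo DNA methyltransferase, was the only one of the 10 regulators that rose against WT. Its level was 8.78 at lowest, 8.99 in the median and 9.12 at highest in Bank1/Pax5 leukemia, and 9.04, 9.23 and 9.70 in Pax5 leukemia. WT arrays read 8.97, 8.85, 9.03 and 8.86. Every Pax5 array lay above every WT array, the lowest of them at 9.04 against the highest WT array at 9.03, and Bank1/Pax5 arrays lay on both sides. Dnmt3a was 1.29-fold higher in Pax5 leukemia than in WT (0.37, SE 0.11, adjusted p = 0.0228 by limma), a call lost without WT array 2 or 4 (adjusted p 0.0618 and 0.0721) and with each array centred on its median (0.33, adjusted p = 0.0530, range over alternatives 0.00288 to 0.115). Bank1/Pax5 leukemia differed from WT by 0.04 (95% interval -0.19 to 0.27), and from Pax5 leukemia by -0.32 (-0.53 to -0.12, adjusted p = 0.0561 by limma). Dnmt3b, the other de novo enzyme, rose in Pax5 leukemia too (0.49, adjusted p = 0.0318 by limma), a call lost without any one WT array or Pax5 array 4 (adjusted p up to 0.0797). Dnmt1, the maintenance enzyme, was called in no comparison (-0.47 for Bank1/Pax5 against WT, -0.04 for Pax5 against WT and -0.42 for Bank1/Pax5 against Pax5).

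Tet2, which oxidises methylated DNA, was the most variable of the 10 in Bank1/Pax5 leukemia. Its level was 8.67 at lowest, 9.24 in the median and 10.11 at highest there, and 8.79, 9.14 and 9.68 in Pax5 leukemia. WT arrays read 9.44, 9.40, 9.38 and 9.30. Bank1/Pax5 arrays 4 and 6, at 10.09 and 10.11, lay above every other array, while the other 4 Bank1/Pax5 arrays did not exceed the WT range. The difference was 0.04 against WT (95% interval -0.51 to 0.58, adjusted p = 0.940 by limma). Without arrays 4 and 6 it was -0.31 and not called (adjusted p = 0.268, range over alternatives 0.0846 to 0.991 by limma). Pax5 leukemia differed from WT by -0.22 (95% interval -0.77 to 0.32), and Bank1/Pax5 from Pax5 leukemia by 0.26 (-0.23 to 0.74). Tet2 and Bank1 lie on chromosome 3 with 11 protein-coding genes between them in the RefSeq order on GRCm38.p6. The arrays with the 2 lowest Bank1 levels, Bank1/Pax5 arrays 6 and 2 at 7.26 and 8.43, had the highest and the lowest Tet2 level of all arrays, 10.11 and 8.67.

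Of Tet2 and its paralogs, only Tet3 was called in any comparison. Tet3 ranged over 8.76 to 9.06 in Bank1/Pax5 leukemia, 9.18 to 9.70 in Pax5 leukemia and 9.18 to 9.38 in WT. It was lower in Bank1/Pax5 leukemia than in Pax5 leukemia without overlap (-0.64, SE 0.08, adjusted p = 0.00103 by limma) and than in WT (-0.38, SE 0.09, adjusted p = 0.00942 by limma), and its difference between Pax5 leukemia and WT did not pass (0.26, adjusted p = 0.0517 by limma). The Tet3 call in Bank1/Pax5 leukemia against WT ended under cyclic loess scaling (-0.25, adjusted p = 0.05004 by limma). It also ended with the other cell types' markers as a covariate (-0.31, adjusted p = 0.199 by limma). Tet1 ranged over 7.03 to 9.92 and 6.74 to 10.42 in the leukemia groups, against 9.35 to 9.53 in WT, and was called in no comparison. Among 18 other DNA methylation genes, these paralogs included, 5 fell in each leukemia group against WT, and 1 rose in Pax5 leukemia. Mbd4, a glycosylase that repairs deaminated methylcytosine, fell in both (-1.46 and -0.82, adjusted p = 5.06e-05 and 0.00359 by limma), and Mbd1 fell in Bank1/Pax5 leukemia (-0.62). Mbd4 was also lower in Bank1/Pax5 leukemia against Pax5 leukemia (-0.64, adjusted p = 0.0266 by limma), a call lost without Pax5 array 1, 2, 4 or 6 (adjusted p up to 0.0590). Gadd45g, with a Pax5 mean of 6.58 under the level of 7.01, and Apobec1 fell in Pax5 leukemia (-0.90 and -2.05).

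Within Bank1/Pax5 leukemia the regulators did not vary together. Arrays 4 and 6 had the lowest Ezh2 (10.92 and 10.97) and the lowest Suz12 (10.15 and 10.51), and the highest Tet2 (10.09 and 10.11), Setd2 (10.55 and 10.64) and Crebbp (11.39 and 11.29). The maintenance enzyme Dnmt1 was lowest there (9.79 and 10.02), and Ezh1 highest (9.82 and 9.54). The cell cycle list, 28 measured genes, had a median level of 8.76 and 9.46 on these 2 arrays, against 10.35 to 10.82 on the other Bank1/Pax5 arrays, 10.30 to 10.84 on Pax5 arrays and 10.64 to 10.83 on WT arrays. Their B cell precursor list medians were 7.58 and 8.64. Pax5 array 3, with the lowest cell cycle median of its group (10.30), also had that group's lowest Ezh2 (11.46) and Suz12 (11.12) and highest Tet2 (9.68) and Setd2 (10.62). Since arrays 4 and 6 stand apart, no correlation of the regulators with the cell cycle list is given, and the part of cell division or cell mixture in these levels was not tested. Without these 2 arrays Ezh2 was still called lower in Bank1/Pax5 leukemia than in WT, and Suz12 was not (-0.28, adjusted p = 0.0539, range over alternatives 0.00740 to 0.557 by limma).

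**Figure D3:**
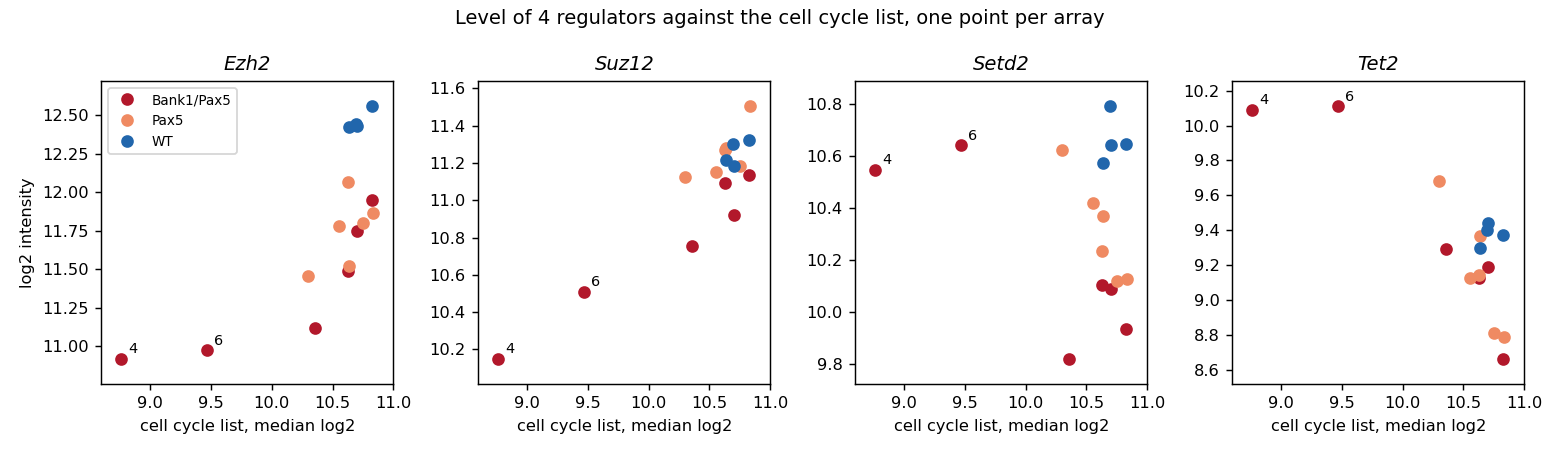
The log2 level of 4 regulators (vertical axes) is plotted against the median log2 level of the cell cycle list (horizontal axis), with a point for each of the 16 arrays. Bank1/Pax5 arrays 4 and 6 lie apart at cell cycle levels of 8.76 and 9.46, low in Ezh2 and Suz12, high in Tet2 and, among Bank1/Pax5 arrays, high in Setd2.

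For each regulator, the 3 genes with the highest Pearson r over the 12 leukemia arrays are given as a description, over arrays that share cell mixture and include Bank1/Pax5 arrays 4 and 6. Suz12 was followed by Hells, a chromatin remodeller of DNA methylation, Rfwd3, a ubiquitin ligase, and Supt16, a histone chaperone (Pearson r 0.985, 0.981 and 0.978). Ezh2 was followed by Galnt14, Paxip1, a subunit of the KMT2C and KMT2D complexes, and Nrf1 (0.977, 0.975 and 0.968). Crebbp was followed by Abcc10, Pcsk1 and Kmt2c (0.947, 0.946 and 0.936), Dnmt3a by the PRC2 subunit Aebp2, Zfp275 and Traf2 (0.937, 0.935 and 0.921), and Kmt2d by Aopep, the remodeller Srcap and Slc9a3r2 (0.943, 0.943 and 0.934). Kmt2a was followed by Snx33, Gramd1a and Cpsf7 (0.948, 0.947 and 0.940), Setd2 by Zfp983, Orai3 and Cyb561a3 (0.952, 0.952 and 0.951) and Tet2 by Txlnb, Nckipsd and Mob3c (0.955, 0.949 and 0.942). The lowest were those of Eed, with Hspe1, Fbxo45 and Dlat (0.890, 0.889 and 0.886), and of Ep300, with Tbc1d13, Elf4 and Thada (0.872, 0.844 and 0.833). Without Bank1/Pax5 arrays 4 and 6 these 30 values lay between 0.844 and 0.978 over 10 arrays. Those 10 are among the 12 on which the genes were chosen as highest, so these values are no independent check. With the WT arrays added several were far lower: r over all 16 arrays was 0.08 for Galnt14, 0.15 for Tbc1d13, 0.19 for Abcc10, 0.36 for Traf2, 0.51 for Slc9a3r2 and 0.52 for Hspe1, and 0.65 to 0.98 for the others.

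Among the gene groups around the 10 regulators, the histone demethylases had the largest share of falls in both comparisons with WT. Of 18 demethylases, 16 fell in Bank1/Pax5 leukemia and 13 in Pax5 leukemia, and none rose. Kdm1b, a lysine 4 demethylase, was 3.90-fold and 3.86-fold lower (-1.96 and -1.95), and Phf8 fell in both (-1.01 and -0.63) and was lower in Bank1/Pax5 leukemia against Pax5 leukemia (-0.38, adjusted p = 0.00212 by limma). Phf2 fell in Bank1/Pax5 leukemia (-1.31) and was lower than in Pax5 leukemia (-0.46, adjusted p = 0.0252 by limma), a call lost without Bank1/Pax5 array 1 or 5 or Pax5 array 4 (adjusted p up to 0.0554). Kdm5b was at least 6.19-fold lower in Pax5 leukemia than in WT (means 6.54 and 9.70, adjusted p = 0.000113 by limma), a bound that sets the 4 Pax5 arrays under 7.01 at that level. In Bank1/Pax5 leukemia 10 of the 18 demethylases fell with cyclic loess scaling and 9 with the other cell types' markers as a covariate. Of 26 other chromatin genes mutated in leukemia, 18 fell in Bank1/Pax5 leukemia and 10 in Pax5 leukemia, and none rose. The count of 18 was 4 with the other cell types' markers as a covariate and 12 with cyclic loess scaling. Smarca4, the ATPase of SWI/SNF remodellers, fell 3.27-fold and 2.30-fold (-1.71 and -1.20), Arid2, a subunit of the same family, by 0.98 and 0.55 on the log2 scale, and the corepressor Bcor fell in Bank1/Pax5 leukemia (-1.50). Between the leukemia groups 6 of these 26 were lower in Bank1/Pax5, among them Ctcf (-0.54), Arid1a (-0.44) and Asxl2 (-0.30). None of the 6 was called with only the leukemia groups fitted or with the other cell types' markers as a covariate, and 2 of the 26 were lower with cyclic loess scaling. The calls of Arid1a and Asxl2 were lost without Bank1/Pax5 array 1 or 5 or Pax5 array 4, and that of Arid1a also without Pax5 array 5 (adjusted p up to 0.0572 and 0.0641 by limma).

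**Figure D4:**
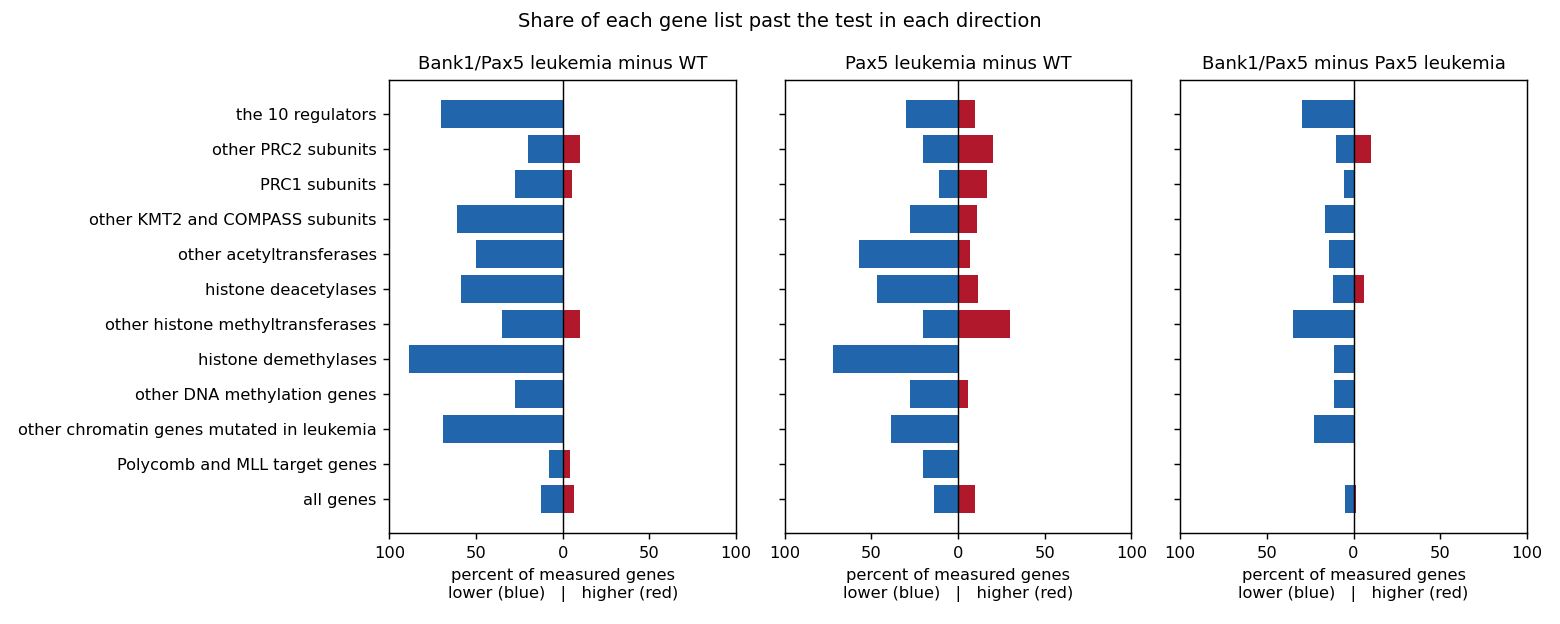
The share of measured genes in each list past the test is plotted in percent to the left (lower) and right (higher) of 0, in the 3 comparisons (panels). The demethylase bar reaches furthest to the left in both comparisons with WT, at 16 and 13 of 18 genes, and most bars are shorter between the leukemia groups.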

How the data were processed

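RNA from 16 mouse bone marrow samples was measured on gene arrays. The authors deposited log2 intensities per probe set, made with RMA in the oligo package per the submitters' processing notes. Versions, genome build, scan batches and filters are not stated there. They were used without further scaling. Array medians lay between 6.58 and 6.71. Precision depends on how many arrays a group has. Among 35556 probe sets, 21789 named 1 gene, 1621 several and 12146 none in the platform annotation. Symbols were updated through RefSeq gene records except for 91 probe sets, and only probe sets naming 1 gene were used. Where a gene had several (999 genes), the probe set brightest on average over the 16 arrays was used. The median of the mean levels of named probe sets was 7.01.

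A model with 3 group means was fitted to all 16 arrays and 19938 genes with limma 3.58.1 in R 4.3.3 (lmFit, eBayes, two-sided), for each leukemia group minus WT and for Bank1/Pax5 minus Pax5 leukemia. P-values were adjusted by Benjamini-Hochberg over all genes at a threshold of 0.05. SE is the moderated standard error, and intervals are 95% and unadjusted. The procedure was tested on simulated data. False calls stayed near the nominal rate when all groups had 1 spread per gene. With each group's own spread they exceeded it for Bank1/Pax5 minus WT and, most, for Bank1/Pax5 minus Pax5, so calls between the leukemia groups are less certain than their adjusted p. Since the labels do not tie every array to its own animal, p-values measure the spread between arrays. A list's level is the median of its measured genes on that array. The members and lists were chosen with earlier results of these data known. From each chromatin list, up to 3 called genes with the smallest p in each comparison are named, beside the paralogs of the 10 regulators, Kdm6a, Hoxa9, Meis1, Bank1, Pax5 and, for each regulator, the 3 genes with the highest Pearson r over 12 leukemia arrays. Alternatives changed the probe set choice, scaling, moderation, weights, arrays, covariates and pairing, and 1 of them, leaving out the leukemia arrays with weak B cell precursor markers, was chosen after seeing the data, as was the r without Bank1/Pax5 arrays 4 and 6.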

Additional observations from a re-analysis of the deposited data

Results flagged for a closer look

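In 63 groups of arrays examined for a single array far from the rest, 3 such arrays were found, where chance flags about 1 group in 20. Ezh2 read 12.56 on WT array 3, against 12.42 to 12.44 on the other WT arrays. Kdm6a read 10.22 on Pax5 array 1, against 9.39 to 9.67 on the other Pax5 arrays. Cdkn2a, a cell cycle inhibitor gene often deleted in leukemia that was chosen after its values were seen, read 9.75 on Pax5 array 6, against 6.67 to 7.22 on the other Pax5 arrays.

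These named genes passed the limma test of Bank1/Pax5 minus Pax5 leukemia at an adjusted p under 0.05, as did 6.7% of all genes. Genes of the lists were named because they were called, in this comparison among others, so their number and direction are no result. Among the 10 regulators these were Kmt2d (-0.55), Suz12 (-0.49) and Ep300 (-0.33). Among their paralogs they were Tet3 (-0.64), Kmt2b (-0.52) and Ezh1 (0.40). Bank1, one of the targeted genes, differed by -1.54. In the Polycomb and KMT2 lists they were Phf19 (-1.05), Pcgf6 (-0.92), Setd1a (-0.49) and Rbbp5 (-0.22). In the acetylation lists they were Kat2a (-0.72), Taf1 (-0.32), Sirt7 (0.43), Sirt6 (-0.62) and Hdac10 (-0.41). In the methylation lists they were Setdb1 (-0.55), Carm1 (-0.60), Dot1l (-0.68), Phf8 (-0.38), Phf2 (-0.46) and Mbd4 (-0.64). In the list of other chromatin genes mutated in leukemia they were Ctcf (-0.54), Arid1a (-0.44) and Asxl2 (-0.30).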

How the results depend on the processing

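Crebbp against WT in both leukemia groups and Ep300 in Bank1/Pax5 leukemia against WT were called in all 29 alternatives run for single genes; the other 11 calls of the regulators each failed in at least 1. The 7 regulators lower in Bank1/Pax5 leukemia than in WT became 4 under cyclic loess, 4 with the replicate block, 2 with the other cell types' markers as covariate and 1, Ezh2, with a 2-fold minimum, and 4 to 7 without single arrays. All calls there (3899) became 6416 under median centring, 6486 with array weights, 2542 with the block, 1681 with that covariate, 936 with the 2-fold minimum, and 2678 to 4531 without single arrays. In Pax5 leukemia against WT the 1 higher regulator became 0 under median centring, with the block and with the 2-fold minimum (0 to 1 without single arrays). The 3 lower ones became 1 with the block and 0 with the 2-fold minimum (2 to 3 without single arrays). All 4655 calls became 8104 with array weights, 972 with the 2-fold minimum and 3072 to 5560 without single arrays. Between the leukemia groups the 3 lower regulators became 0 under cyclic loess, with only these groups fitted and with the 2-fold minimum, and 1 with the marker covariate or without the arrays of low Pax5 (1 to 4 without single arrays). All 1336 calls became 446 with only these groups, 696 with the block, 222 with the marker covariate, 659 without the arrays of low Pax5, 73 with the 2-fold minimum and 725 to 1742 without single arrays. The causes were not tested.

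No difference that had passed the test changed sign. Among differences not called, Bank1/Pax5 minus WT turned to 0.0815 for Eed and 0.0356 for Ezh1 under cyclic loess, 0.0321 for Eed with the cell cycle covariate and 0.0259 for Ezh1 without the arrays of low Pax5. For Dnmt3a it turned to -0.0561 under median centring and -0.0075 with array weights. For Tet2 it turned to -0.0632 and -0.0646 under the same settings, -0.0179 with the replicate block, -0.37 with the cell cycle covariate, -0.33 with the marker covariate, and -0.31 without Bank1/Pax5 arrays 4 and 6 or without arrays of weak B cell precursor markers. Pax5 minus WT turned, for Suz12, to 0.0122 under cyclic loess, 0.0397 with the cell cycle and 0.0426 with the marker covariate, 0.0221 without the arrays of low Pax5 and 0.0212 without those of weak B cell markers. For Dnmt1 it turned to 0.0046 with the block, 0.0172 with the cell cycle covariate, 0.0363 with the marker covariate, 0.0371 without arrays of weak B cell markers, and 0.0038 without the arrays of low Pax5. Bank1/Pax5 minus Pax5 turned to 0.0344 for Ezh2 with the marker covariate, to 0.0611 and 0.0389 for Crebbp under cyclic loess and without the arrays of low Pax5, and to 0.048 for Setd2 without those. For Tet2 it turned to -0.0817 with the cell cycle covariate, -0.0273 with the marker covariate and -0.0835 without Bank1/Pax5 arrays 4 and 6. For Kdm6a it turned to 0.0792 under cyclic loess, 0.0151 with array weights, 0.0164 with the cell cycle covariate, 0.20 with the marker covariate and 0.0204 without arrays 4 and 6. Without single arrays the ranges that crossed 0 were -0.14 to 0.0485 for Eed, -0.10 to 0.18 for Tet2 and -0.58 to 0.0011 for Tet1 in Bank1/Pax5 minus WT. In Pax5 minus WT they were -0.0539 to 0.0221 for Suz12, -0.0805 to 0.0038 for Dnmt1 and -0.40 to 0.33 for Tet1. In Bank1/Pax5 minus Pax5 they were -0.13 to 0.0625 for Kdm6a and -0.73 to 0.17 for Tet1.

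Whether the replicate numbers pair the arrays was not decided. Deviations of same-numbered arrays from their group means correlated between -0.38 and 0.32, but differently numbered arrays were not set beside them. Over the differences of single genes, 3305 recomputed values kept direction and side of the threshold, 325 fell short, 21 newly passed and 52 changed sign. Pax5 was low on Bank1/Pax5 arrays 1 and 5 and Pax5 array 3, and B cell precursor markers on Bank1/Pax5 arrays 4 and 6 and Pax5 arrays 3 and 5. Groups differ in spread, and 16 arrays limit the precision.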
